A study of Mus musculus with 14 samples.

Results

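The regions described here are 1443 promoter-type peaks of mouse medulloblastoma cells that carried H3K4me3 alone in control cells and overlapped H3K27ac in cells lacking Ezh2. They were found among the 14363 H3K4me3 peaks of the control cells, labelled Cas9. A peak was called unmarked when it overlapped, by 1 bp or more, neither an H3K27me3 island nor an H3K27ac peak of the Cas9 cells. This held for 5579 peaks, and the 1443 that also overlapped an H3K27ac peak of the knockout are called gained below. The members were thus chosen by the H3K4me3, H3K27me3 and H3K27ac calls of the Cas9 cells and the H3K27ac calls of the knockout. All 11 lists of the series together held 201448 regions.

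The tumour cells labelled Ezh2KO were p53-/-;p18-/- and Ezh2-/-, and those labelled Cas9 were p53-/-;p18-/- with Ezh2 intact. Per the labels and the study's design text, both were tumorspheres of Group 3 medulloblastoma over-expressing Myc, in which Cas9 vectors were used, infected with retroviral vectors and sorted for red and green fluorescence. The labels also describe transplantation into the brains of immunodeficient mice and do not say whether the chromatin came from cultured or transplanted cells. Neurospheres of genotype p53-/-;p18-/- were profiled separately, with a Gfi1 antibody in cells labelled Suz12F2 and Cas9, and with a Cas9 antibody in cells labelled Suz12F1, Suz12F2 and U6. Chromatin immunoprecipitation followed by sequencing (ChIP-seq) gave 1 library per group, so no difference below could be tested across samples. As a check of the labels, H3K27me3 islands covered 18.6 Mb in the knockout and 71.4 Mb in Cas9 cells, while Ezh2 itself was not measured here. Shares carry Wilson 95% intervals and medians carry order-statistic 95% intervals, which cover counting error over peaks only.

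H3K4me3 is laid down at the start sites of most genes with CpG-rich promoters, including many that are transcribed weakly. H3K27ac is deposited on the same lysine that Polycomb repressive complex 2, with Ezh2 as its catalytic subunit, methylates to H3K27me3, and it marks active promoters and enhancers. Promoters that carry H3K4me3 with H3K27me3 are called bivalent and are the usual place to look for acetylation after Ezh2 loss. The gained peaks had no H3K27me3 call of their own in the Cas9 cells. The lists give mm9 coordinates without gene names or sequences, and no mm9 annotation or genome was used here, so regions are named by position. Where peaks of these lists are called promoters, the word stands for an H3K4me3 peak. None was placed at a gene start.

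The gained peaks were intermediate H3K4me3 peaks. Their median width was 561 bp (543 to 578), and the middle 80% of them measured between 258 and 1007 bp. Unmarked peaks that stayed without H3K27ac but had H3K4me3 in the knockout measured 429 bp (419 to 439, n = 2569). Those that also had no H3K4me3 in the knockout measured 235 bp (230 to 241, n = 1567). Bivalent peaks that gained H3K27ac were wider than the gained unmarked peaks, at 676 bp (640 to 707, n = 615), and peaks acetylated in both kinds of cell were widest, at 825 bp (813 to 837, n = 6555). Only 148 gained peaks, or 10.3% (8.80 to 11.9), reached 1 kb, against 33.4% (32.3 to 34.5) of the peaks acetylated in both.

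Within the Cas9 H3K4me3 list, ranked by the score the authors gave each peak, the gained peaks lay in the middle. Their median percentile was 49.3 (47.4 to 51.1), where 100 is the highest score. The not acetylated peaks lay at the median percentile 32.0 when H3K4me3 was called in the knockout and 12.2 when it was not. Bivalent peaks that gained H3K27ac lay at 43.3 and peaks acetylated in both at 73.7. Peaks acetylated in Cas9 cells alone, the opposite case, had nearly the width and rank of the gained peaks, with medians of 559 bp (516 to 585, n = 433) and 47.4 (43.3 to 51.1).

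**Figure D1:**
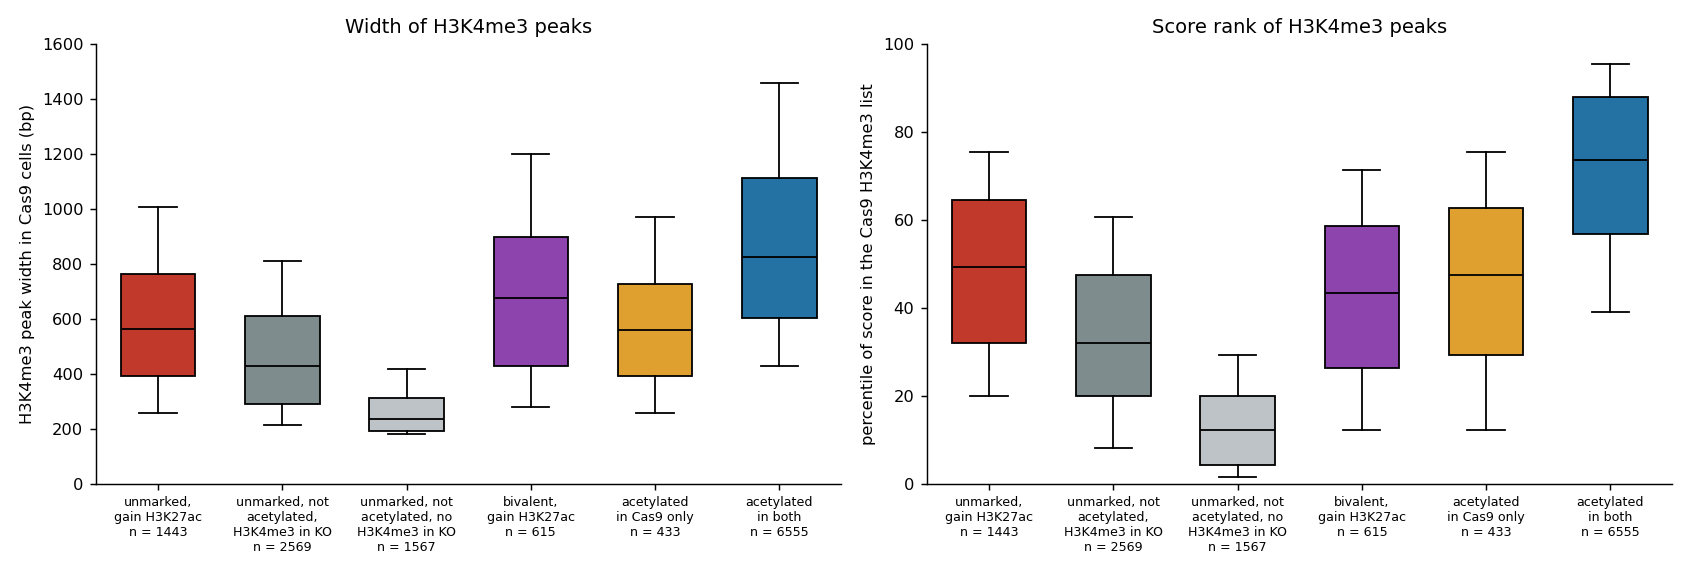
Width in bp (left) and percentile of the authors' score within the Cas9 H3K4me3 list (right) for 6 classes of Cas9 H3K4me3 peaks; the line is the median, the box spans the middle 50% and the whiskers the middle 80% of peaks. Gained peaks (median 561 bp) sit between unmarked peaks without H3K27ac and peaks acetylated in both kinds of cell (825 bp), and beside peaks acetylated in Cas9 cells alone (559 bp).

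The share of unmarked peaks that gained H3K27ac followed the strength of their H3K4me3. Over all unmarked peaks it was 25.9%, and over all Cas9 H3K4me3 peaks 60.8% overlapped a knockout H3K27ac peak. These shares use the calls that chose the members and are given as a description. Among the narrowest unmarked peaks, of 180 to 191 bp, 32 of 542 gained H3K27ac, or 5.90% (4.21 to 8.22). Among the widest, of 810 to 2856 bp, 292 of 558 did, or 52.3% (48.2 to 56.4). Every step between the 10 width bins was upward. By score the share ran from 6.30% (4.97 to 7.95) at scores of 7 to 11 to 56.1% (53.2 to 59.0) at scores of 28 to 67.

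A wider peak meets another by 1 bp more easily, so knockout H3K27ac was also read in a fixed 500 bp around each centre. The share was then 14.2% in the narrowest bin and 48.4% in the widest, so the rise remained but was less steep. Around narrow peaks this window reaches past the peak and may hold H3K27ac that was also called in Cas9 cells. Score and width each went with the gain when the other was held close. In the bin of 456 to 647 bp, gained peaks had a median score of 27 and a median width of 552 bp, and the other unmarked peaks a score of 21 and a width of 538 bp. In the bin of scores from 19 to 27, gained peaks measured 554 bp at a median score of 23, and the others 484 bp at 22. Both comparisons used the 1 bp rule, which wider peaks meet more easily, so the width gap may partly follow from that rule.

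**Figure D2:**
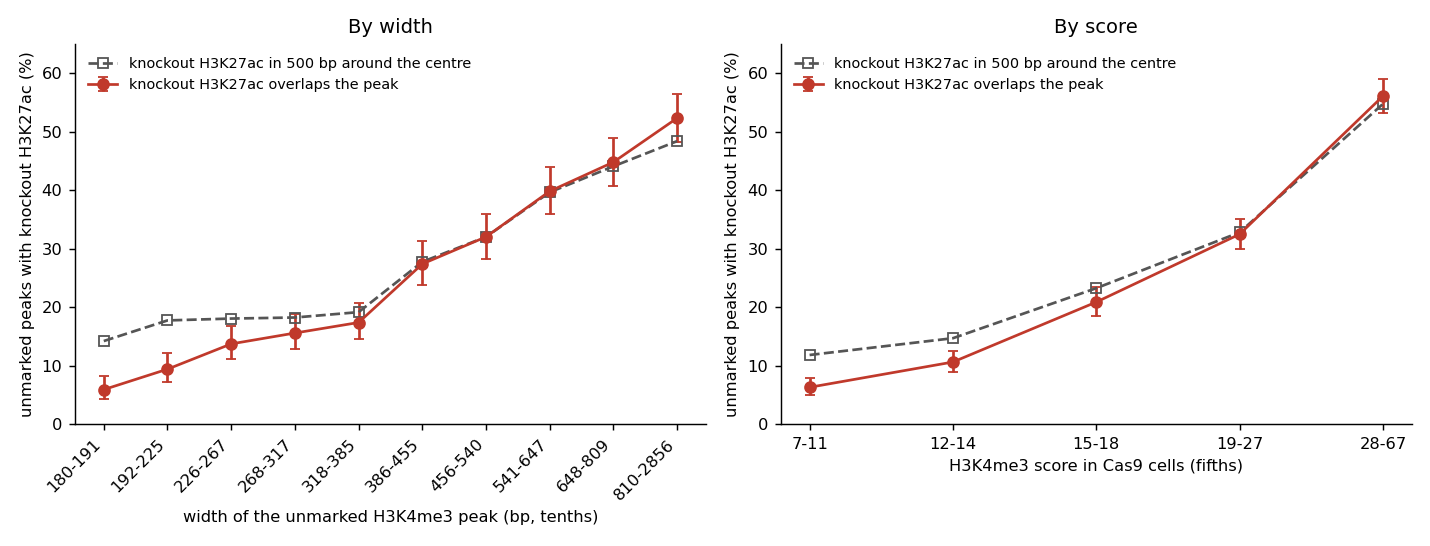
Share of unmarked Cas9 H3K4me3 peaks with knockout H3K27ac, in percent, by width (10 bins) and by score (5 bins); circles count any overlap with the peak, with Wilson 95% intervals, and squares count knockout H3K27ac within 500 bp around the centre. Both readings climb, the first from 5.90% to 52.3% and the second from 14.2% to 48.4% over the width bins.

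The 5 gained peaks with the highest H3K4me3 scores show how strong a promoter peak could be without an H3K27ac call in Cas9 cells. The highest, chr17:46816922-46817854, measured 933 bp and had a score of 67, at the percentile 98.6. It was 23.7 kb from any Cas9 H3K27ac peak, and its knockout H3K27ac peak, chr17:46817522-46817730, ranked low in the knockout list, at the percentile 8.66. Next came chr8:119467210-119468119, chr1:162722092-162723369, chr11:120353126-120353955 and chr15:89144929-89145760, with scores of 59 to 63. Of these, the chromosome 1 peak had the highest-ranked knockout H3K27ac, at the percentile 84.7 with 621 bp.

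The widest gained peak, chr5:133016994-133019849, measured 2856 bp, and its knockout H3K27ac peak covered 190 bp of it. The next, chr7:37481362-37483877, measured 2516 bp, had 524 bp of knockout H3K27ac and lay 893 kb from the nearest Cas9 H3K27ac peak. The third, chr9:106355590-106357862, measured 2273 bp and had 170 bp of knockout H3K27ac. In these wide regions the new H3K27ac thus covered a minor part of the H3K4me3.

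The H3K27ac that chose the gained peaks was narrow and ranked low in the knockout list. The highest-scoring knockout H3K27ac peak at each had a median width of 259 bp (250 to 266), against 363 bp (347 to 391) at bivalent peaks that gained H3K27ac and 472 bp (465 to 479) at peaks acetylated in both. Its median percentile in the knockout H3K27ac list was 21.0, against 28.8 (26.1 to 33.4) and 66.0 (64.9 to 66.0). For 791 gained peaks, or 54.8% (52.2 to 57.4), it belonged to the lowest 25% of the knockout scores, and for 34, or 2.36%, to the highest 25%. Knockout H3K27ac covered a median of 49.8% of a gained peak, and its centre lay a median of 13.2% of the peak's width from the peak's centre. The rank was higher at stronger H3K4me3, with a median percentile of 15.9 in the lowest of the 5 H3K4me3 score bins and 26.1 in the highest.

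The gained peaks held 1504 distinct knockout H3K27ac peaks. Of these, 1478 overlapped no Cas9 H3K27ac peak, and they made up 52.0% of the 2843 H3K27ac peaks found in the knockout alone. The 1504 made up 14.9% of all 10112 knockout H3K27ac peaks. Both shares rest on the calls that chose the gained peaks and are a description. Most gained peaks, 1382, had 1 knockout H3K27ac peak, 56 had 2 and 5 had 3. At 26 gained peaks a knockout H3K27ac peak also overlapped a Cas9 H3K27ac peak next to the H3K4me3 peak. Of the 5 gained peaks with the highest-scoring knockout H3K27ac, 3 were of this kind.

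The first of them, chr3:95463871-95464081, was a 211 bp H3K4me3 peak that shared 100 bp with a knockout H3K27ac peak of 1754 bp and lay 116 bp from a promoter peak acetylated in both kinds of cell. The peaks chr11:109511628-109511946 and chr2:109730654-109730925 lay 83 and 60 bp from such a peak. Away from acetylated neighbours were chr6:86476822-86477309 and chr2:3630724-3631437. The chromosome 6 peak lay wholly inside a knockout H3K27ac peak of 755 bp, at the percentile 98.0, and the nearest Cas9 H3K27ac peak was 87.7 kb away. The chromosome 2 peak shared 559 bp with its knockout H3K27ac peak, at the percentile 91.2, 200.1 kb from any in Cas9 cells.

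The number of gained peaks depended on the length of the knockout H3K27ac list, which held 10112 peaks against 7951 in Cas9 cells. When the knockout list was trimmed by score to 7951 peaks, 742 of the gained peaks remained, or 13.3% of the unmarked peaks, and knockout H3K27ac lay at 50.9% of all Cas9 H3K4me3 peaks. The mirror case was counted in the same way, as knockout H3K4me3 peaks without H3K27me3 or H3K27ac in the knockout that overlapped Cas9 H3K27ac. There were 437 of 5277, or 8.28% (7.57 to 9.06), with the lists as deposited, against 25.9% (24.7 to 27.03) for the gained peaks. With the trimmed list the mirror share was 14.0% (13.2 to 14.8), 941 of 6728 peaks, against 13.3% (12.4 to 14.2). Trimming added to the 437 mirror peaks those whose knockout H3K27ac was in the cut part of the list. The 941 are therefore not all acetylated in Cas9 cells alone.

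Thus the excess of gained over mirror peaks was seen with the lists as deposited and not with lists of equal number. Library depth is unknown, and a deeper or cleaner knockout library and wider acetylation in the knockout cannot be told apart from these lists. With the lists as deposited, the Cas9 H3K27ac peaks of the mirror class ranked low as well. Their median percentile in the Cas9 list was 16.0 (13.4 to 18.6), and their median width was 226 bp (220 to 237).

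**Figure D3:**
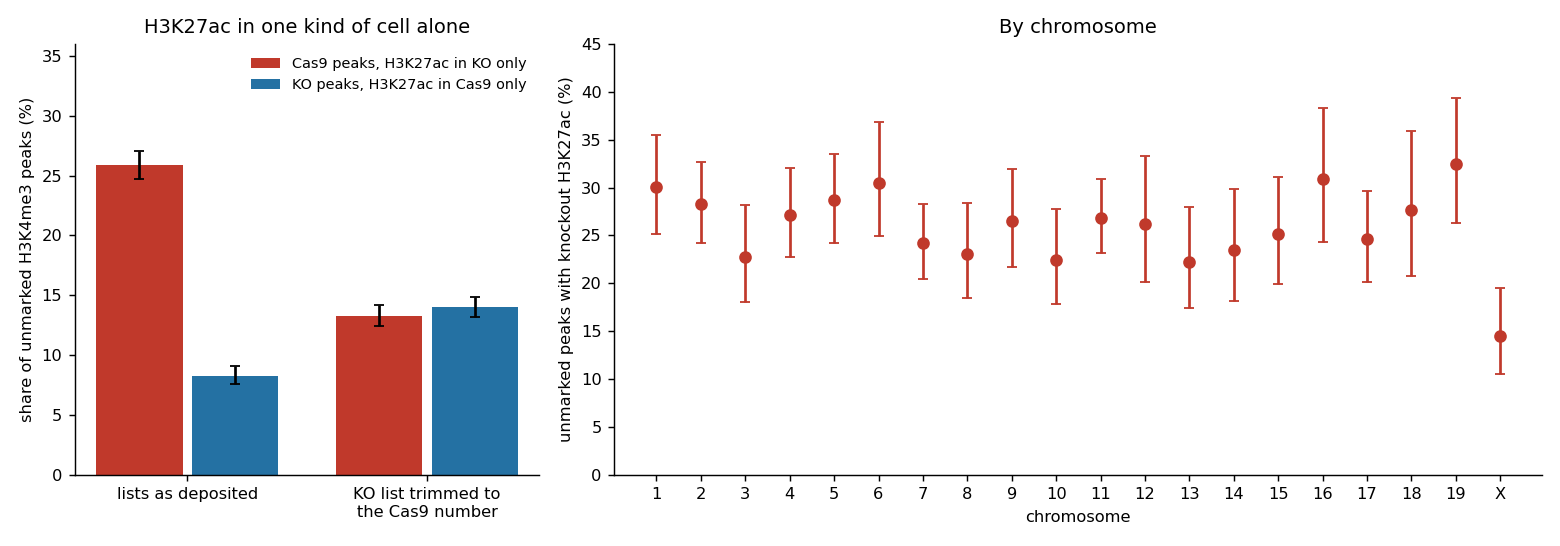
Left, share of unmarked H3K4me3 peaks with H3K27ac in the other kind of cell alone, in percent, for Cas9 peaks acetylated in the knockout and for knockout peaks acetylated in Cas9 cells, with the lists as deposited and with the knockout list trimmed. With the trimmed list, knockout peaks whose own H3K27ac was cut count as unmarked. Right, share of unmarked Cas9 peaks with knockout H3K27ac on each chromosome. Bars on both are Wilson 95% intervals; the shares on the left are 25.9% and 8.28%, then 13.3% and 14.0%, and chromosome X is lowest on the right at 14.5%.

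Distance to Polycomb islands separated gained peaks little from the other unmarked peaks. The nearest Cas9 H3K27me3 island lay a median of 79.0 kb away (72.6 to 85.7) for gained peaks. It lay 73.8 kb away (68.9 to 81.4) for unacetylated peaks with H3K4me3 in the knockout, 80.0 kb (72.3 to 87.9) for those without, and 86.0 kb (80.6 to 89.6) for peaks acetylated in both. An island lay within 10 kb of 14.9% (13.2 to 16.8) of gained peaks and 13.3% (12.4 to 14.2) of all unmarked peaks. For peaks acetylated in both the share was 10.2% (9.51 to 11). Within 50 kb the shares were 38.3% (35.8 to 40.9), 39.2% (37.9 to 40.5) and 36.2% (35.0 to 37.4), in the same order.

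The share of unmarked peaks that gained H3K27ac was highest right beside islands, but few peaks lay there. Within 1 kb of an island it was 34.1% (26.4 to 42.8), 43 of 126 peaks. From 1 to 5 kb it was 28.4% (23.7 to 33.6), from 20 to 50 kb 23.8% (21.3 to 26.5), and beyond 100 kb 25.7% (24.0 to 27.5), where 618 of the gained peaks lay, more than in any other distance bin. Among unmarked peaks with no other H3K4me3 peak within 2 kb, it was 39.0% (27.6 to 51.7) within 1 kb and 35.9% (33.1 to 38.8) beyond 100 kb, with overlapping intervals in all 6 distance bins.

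The gained peaks nearest to an island were chr12:86827232-86827555, at 45 bp, chr12:114188253-114188778, at 52 bp, and chr1:179371673-179372134, at 72 bp. The last of these also lay 275 bp from a peak acetylated in both. The farthest lay several megabases away, at 5638 kb for chr16:50429825-50430563, 4877 kb for chr1:145623679-145624174 and 4291 kb for chrX:75040568-75041399.

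Of the 1443 gained peaks, which were chosen to lack H3K27me3 in Cas9 cells, 9 overlapped a knockout H3K27me3 island, or 0.624% (0.328 to 1.18). The share was 0.538% (0.377 to 0.767) of all unmarked peaks, 0.336% (0.222 to 0.508) of peaks acetylated in both, 5.69% (4.12 to 7.81) of bivalent peaks that gained H3K27ac and 1.56% of all Cas9 H3K4me3 peaks.

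**Figure D4:**
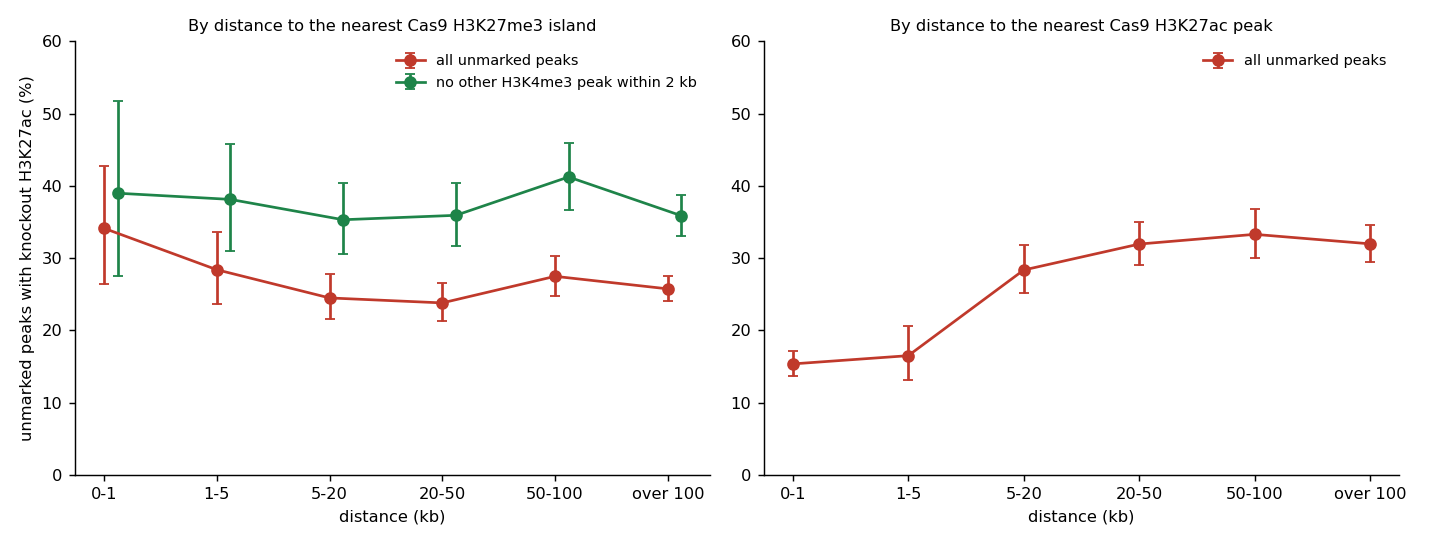
Share of unmarked Cas9 H3K4me3 peaks with knockout H3K27ac, in percent with Wilson 95% intervals, by distance in kb to the nearest Cas9 H3K27me3 island (left, also for peaks with no other H3K4me3 peak within 2 kb) and to the nearest Cas9 H3K27ac peak (right). The left curve is nearly flat beyond 5 kb, and the right one is 15.4% within 1 kb and 28.3% or more beyond 5 kb.

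Gained peaks lay about as far from promoters acetylated already as those lay from each other, and farther off than unacetylated unmarked peaks. The nearest H3K4me3 peak acetylated in both kinds of cell was a median of 47.4 kb (43.3 to 50.7) from gained peaks. This was 31.3 kb (28.2 to 34.6) for unacetylated peaks with H3K4me3 in the knockout and 8.24 kb (5.15 to 11.7) for those without. Peaks acetylated in both were 45.2 kb (43.1 to 47.6) from the next of their kind. Bivalent peaks that gained H3K27ac were farther off than gained peaks, at 89.2 kb (78.3 to 95). With the knockout list trimmed to the Cas9 number, the distance of gained peaks was 56.9 kb (49.4 to 62.9). It was 67.4 kb (58.6 to 82.6) where H3K27ac covered 50% of the peak. With the upper 50% of knockout scores it was 99.4 kb (82.03 to 125). These stricter rules also left fewer peaks acetylated in both to measure to. The values are therefore not comparable with the 45.2 kb, which was not recomputed.

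Unmarked peaks close to an acetylated site gained H3K27ac less often than remote ones. Within 1 kb of a Cas9 H3K27ac peak the share was 15.4% (13.7 to 17.2), 245 of 1596 peaks, and from 1 to 5 kb 16.5% (13.1 to 20.5). From 5 to 20 kb it was 28.3% (25.2 to 31.8) and beyond 100 kb 32.0% (29.4 to 34.6). Peaks within 1 kb were also narrower, with a median of 380 bp for gained and 265 bp for the other unmarked peaks, against 600 and 376 bp beyond 100 kb. The share with any knockout H3K27ac in 500 bp around the centre was 22.9% within 1 kb and 31.7% beyond 100 kb. That window may also hold Cas9 H3K27ac beside the peak, so it does not count gains alone.

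Many unmarked peaks were companions of another H3K4me3 peak, gained ones less often. Another H3K4me3 peak lay within 1 kb of 478 gained peaks, or 33.1% (30.7 to 35.6). It did so for 52.5% (50.6 to 54.5) and 70.1% (67.8 to 72.3) of the unacetylated peaks with and without H3K4me3 in the knockout, and for 36.6% (35.5 to 37.8) of peaks acetylated in both. In the width bin of 648 to 2856 bp the shares were 21.2% (18.0 to 24.9) for gained and 37.8% (33.9 to 41.8) for all other unmarked peaks. The neighbours of gained peaks were most often acetylated in both, for 222 peaks, or unacetylated with H3K4me3 in the knockout, for 144. Another gained peak lay within 1 kb of 60. A peak acetylated in both lay beside 15.4% (13.6 to 17.3) of gained peaks, against 18.9% (18.3 to 19.5) of all Cas9 H3K4me3 peaks. Unacetylated peaks with H3K4me3 in the knockout lay beside 9.98% of gained peaks, 17.4% of their own class and 9.63% of peaks acetylated in both. For gained neighbours these shares were 4.16%, 5.76% and 3.40%.

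The gained peaks closest to a peak acetylated in both were chr11:64248745-64249119 and chr17:23810817-23811121, both at 52 bp, and chr1:92949659-92950227, at 53 bp. The 3 farthest were all on chromosome X, chrX:82819264-82819820 at 8062 kb, and chrX:109714802-109715398 and chrX:109714372-109714621 at 6590 kb. The last pair shared 1 knockout H3K27ac peak of 908 bp, chrX:109714448-109715355.

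Most gained peaks had no other gained peak within 100 kb, and this spacing was not compared with that of other peaks. The next gained peak lay a median of 256 kb away, 1033 had no other within 100 kb, 312 had 1 and 87 had 2. The peak with most neighbours, chr7:133920456-133920801, had 4 others within 100 kb. The peaks chr19:6995476-6996355 and chr19:7043893-7044399 each had 3.

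Chromosome X had the lowest share of gained peaks, apart from Y, which held 1 unmarked peak and 0 gained. There, 34 of 235 unmarked peaks gained H3K27ac, or 14.5% (10.5 to 19.5), against 26.4% (25.2 to 27.6) on the autosomes, which ranged from 22.3% on chromosome 13 to 32.5% on chromosome 19. The gap was found among wide peaks. From 456 to 647 bp the share was 11.8% (4 of 34, interval 4.67 to 26.6) on X and 36.7% (33.9 to 39.6) on autosomes, and from 648 bp upward 21.2% (7 of 33, interval 10.7 to 37.8) and 49.4% (46.4 to 52.4). Among peaks of 180 to 225 bp it was 12.3% (6.08 to 23.2) and 7.44% (6.004 to 9.19). In each of the 5 width bins the X peaks had lower median H3K4me3 scores, with medians in the widest bin of 23 for gained and 18.5 for the others, against 33 and 27 on autosomes. Acetylation was also less frequent over all H3K4me3 peaks of X, gained or not. Of all H3K4me3 peaks on X, 123 of 351 overlapped knockout H3K27ac, or 35.0% (30.2 to 40.2), against 61.5% (60.6 to 62.3) on autosomes, and 104, or 29.6% (25.1 to 34.6), overlapped Cas9 H3K27ac, against 50.03% (49.2 to 50.9). Whether this score gap accounts for the low share on X was not tested.

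H3K4me3 itself, which did not enter the rule for the knockout, was called again at most gained peaks. It was found in the knockout at 1340 of 1443, or 92.9% (91.4 to 94.1), against 85.4% of all Cas9 H3K4me3 peaks and 62.1% (60.6 to 63.6) of the unmarked peaks that did not gain H3K27ac. Since narrow peaks recurred less, the shares were also compared at equal width. They were 57.6% (47.0 to 67.6) for gained and 30.3% (27.5 to 33.2) for the other unmarked peaks from 180 to 225 bp. From 318 to 455 bp they were 93.6% (89.9 to 96.0) and 69.9% (66.7 to 72.8), and from 648 bp upward 99.6% (98.7 to 99.9) and 96.2% (94.3 to 97.5). In each of the 5 width bins the interval of the gained peaks lay above that of the others. Score was not held equal, and in each bin the gained peaks also had the higher median H3K4me3 score. The medians were 12 against 11 from 180 to 225 bp, 20 against 16 from 318 to 455 bp, and 32 against 26 from 648 bp upward. Whether this accounts for the difference in recurrence was not tested. The 103 gained peaks without H3K4me3 in the knockout were narrow, with a median of 251 bp against 582 bp for the rest.

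Where 1 Cas9 H3K4me3 peak matched 1 knockout peak, the width in the knockout was slightly smaller at gained peaks. The median was 503 bp (484 to 525) in the knockout and 577 bp (560 to 597) in Cas9 cells over 1151 pairs, and the median ratio was 0.90 (0.88 to 0.92). Over the whole lists, H3K4me3 peaks had a median width of 516 bp in the knockout and 601 bp in Cas9 cells. Peaks acetylated in both narrowed alike, with a ratio of 0.90 (0.89 to 0.90, n = 5351), and unacetylated peaks gave 0.86 (0.85 to 0.87, n = 2076). Bivalent peaks that gained H3K27ac had a ratio of 1.05 (1.02 to 1.08, n = 498). The knockout peak was the wider one at 32.8% (30.2 to 35.6) of gained peaks and at 59.0% (54.7 to 63.3) of the bivalent ones.

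At equal width the ratio of gained peaks was below that of bivalent peaks in all 5 bins, with intervals that overlapped from 180 to 225 bp, at 1.27 (1.12 to 1.58) and 1.81 (1.33 to 2.20), and did not overlap in the other 4. From 318 to 455 bp the ratio was 0.93 (0.86 to 0.98) for gained peaks, 1.33 (1.22 to 1.41) for bivalent peaks and 0.84 (0.82 to 0.87) for unmarked peaks that did not gain H3K27ac. From 648 bp upward the ratios were 0.86 (0.83 to 0.88), 1.00 (0.96 to 1.01) and 0.73 (0.70 to 0.77), and peaks acetylated in both had 0.89 (0.88 to 0.89). In this widest bin the gained peaks thus narrowed less than the other unmarked peaks and slightly more than the peaks acetylated in both.

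**Figure D5:**
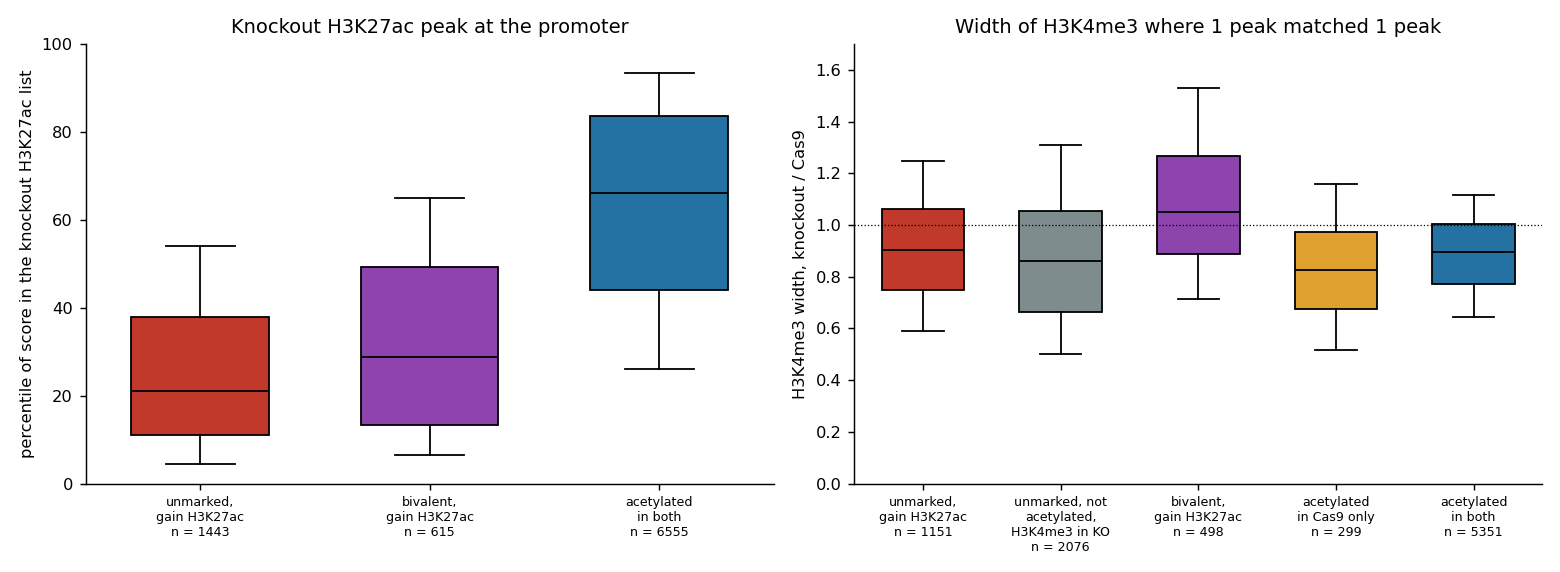
Left, percentile of the highest-scoring knockout H3K27ac peak within the knockout list at gained, bivalent and doubly acetylated promoters; right, ratio of H3K4me3 width in the knockout to that in Cas9 cells, where 1 peak matched 1 peak. The line is the median, the box the middle 50% and the whiskers the middle 80%; gained peaks have a median percentile of 21.0 and a median ratio of 0.90, and bivalent peaks that gained H3K27ac alone have a median ratio above 1.

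Neurosphere lists, which come from other cells, were set beside the gained peaks last. Gfi1 is a zinc finger repressor of transcription. The islands of its antibody were broad, covering 294 Mb in Suz12F2 and 368 Mb in Cas9 neurospheres, so overlap with them says little of single promoters. Those in Suz12F2 neurospheres overlapped 98.5% (97.8 to 99.0) of gained peaks, where all Cas9 H3K4me3 peaks gave 97.5%, and those in Cas9 neurospheres overlapped 87.9% (86.1 to 89.5), where all gave 86.4%. Both shares were near those of all H3K4me3 peaks, and they were above the 95.8% (94.9 to 96.5) and 82.6% (81.1 to 84.1) of unacetylated peaks with H3K4me3 in the knockout. The gained peaks were also wider than those, at 561 against 429 bp, and these shares were not compared at equal width.

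With the Cas9 antibody, islands of cells labelled U6 overlapped 179 gained peaks, or 12.4% (10.8 to 14.2), where all H3K4me3 peaks gave 13.2%. Unacetylated peaks with H3K4me3 in the knockout gave 6.50% (5.61 to 7.52), and bivalent peaks that gained H3K27ac 26.02% (22.7 to 29.6). From 648 bp upward the U6 share was 17.5% (14.6 to 21.0) for gained peaks, 9.23% (7.13 to 11.9) for the other unmarked peaks and 17.8% (16.8 to 19.0) for peaks acetylated in both. At some other widths the intervals of the gained and the other unmarked peaks overlapped. From 226 to 317 bp the U6 shares were 7.93% (4.69 to 13.1) for gained and 5.86% (4.54 to 7.54) for the other unmarked peaks, and from 318 to 455 bp 7.60% (4.92 to 11.6) and 7.59% (6.01 to 9.55). Islands of Suz12F2 cells overlapped 5.13% (4.10 to 6.39) of gained peaks, where all gave 6.39%. Islands of Suz12F1 cells overlapped 0, with an interval up to 0.266%, where all gave 0.0557%.

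Peaks that shared 200 bp or less with a mark, or lay within 200 bp of one, were narrower than the gained peaks as a whole. Sharing 200 bp or less is not always a marginal overlap. The narrowest knockout H3K27ac peaks at gained peaks measured 170 bp, and the narrowest gained peaks 180 bp. A peak of 200 bp or less is counted so however fully it is covered. The 420 gained peaks that shared 200 bp or less with knockout H3K27ac had a median width of 414 bp and a median score percentile of 34.5, and the 440 unmarked peaks with knockout H3K27ac within 200 bp but no overlap had 271 bp and 19.96. Cas9 H3K27ac lay within 200 bp of 101 gained peaks, of median width 352 bp. That was 7.00% (5.79 to 8.43) of gained peaks, against 8.82% (8.10 to 9.59) of all unmarked peaks. Of the peaks acetylated in both, 461 shared 200 bp or less with Cas9 H3K27ac, at 503 bp. A Cas9 H3K27me3 island lay within 200 bp of 9 gained peaks, a count not made for all unmarked peaks. Among bivalent peaks that gained H3K27ac, 34 shared 200 bp or less with such an island.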

How the data were processed

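The authors deposited lists of enriched regions, each with a score whose meaning the files do not state. It was used only to rank regions within 1 list. The build was mm9, and SICER 1.1, R 2.14.0, SAMtools, BWA 0.5.9-r26 and Picard are named without their role, per the submitters' processing notes. Per the file names, islands (H3K27me3 and neurosphere lists) had a window of 200 bp, a gap of 600 bp and a false discovery rate of 0.00001. To each island end 1 bp was added, since those ends are inclusive in a count from 0. For the H3K27ac and H3K4me3 peaks, the sources used here do not give the caller. Input libraries were not used, and depth is unknown.

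Running numbers in the tumour lists show regions not analysed here, 375 and 363 in the H3K27ac lists of Cas9 and knockout cells. Of the gained peaks, 94 lie at such a gap of the Cas9 H3K27ac list, or 6.51% (5.35 to 7.91). The share was 6.31% (5.70 to 6.98) of all unmarked peaks and 4.95% (4.61 to 5.32) of all Cas9 H3K4me3 peaks.

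Overlaps (1 bp), edge-to-edge distances and intervals came from scipy 1.17.1 and numpy 2.4.6 under Python 3.11.15, with plots by matplotlib 3.10.9. Against bedtools 2.31.1, 0 of 14363 peaks differed over 10 lists. On simulated data, 2000 of 2000 planted overlaps were recovered. With 1 library per group there was no test.

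The members, classes and alternatives were chosen with earlier results of these data known. Width bins, the mirror class, the counts by chromosome and of neighbours, and 3 alternatives were added after seeing the data. Regions named are the 5 gained peaks with the highest knockout H3K27ac score, the 5 with the highest H3K4me3 score, the 3 widest, the 3 nearest to and the 3 farthest from H3K27me3 and from a peak acetylated in both, and the 3 with most gained peaks within 100 kb.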

Additional observations from a re-analysis of the deposited data

How the results depend on the processing

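Each of 10 results was recomputed with 7 other choices and with 3 more chosen after seeing the data. A value is given here where it left the 95% interval of the value reported, or where the count of gained peaks moved by over 1.5 times, and the cause was not tested beyond how each choice is built. When knockout H3K27ac had to cover 50% of the peak, 719 gained peaks were left, with a median width of 431 bp, a score percentile of 41.1, distances of 86.2 kb to H3K27me3 and 67.4 kb to a peak acetylated in both, H3K4me3 in the knockout at 90.3% and Gfi1 islands of Suz12F2 neurospheres at 97.8%. With the knockout H3K27ac list trimmed to the Cas9 number there were 742, at 56.9 kb from a peak acetylated in both, with H3K4me3 in the knockout at 94.7% and a new H3K27ac peak at 96.8%. With the upper 50% of knockout H3K27ac scores there were 180, with a width of 616 bp, a percentile of 54.8, distances of 87.4 and 99.4 kb, H3K4me3 at 95%, a new H3K27ac peak at 90.6% and Gfi1 islands at 97.2%. In the upper 50% of H3K4me3 scores there were 691, with 693 bp, a percentile of 64.5, 57.0 kb from a peak acetylated in both, and both H3K4me3 and a new H3K27ac peak at 100%. With no other H3K4me3 peak within 2 kb there were 944, with 612 bp, a percentile of 53.0, 61.9 kb, H3K4me3 at 95.7% and a new H3K27ac peak at 100%. With no Cas9 H3K27ac or H3K27me3 within 1 kb the width was 597.5 bp, the distance to a peak acetylated in both 60.5 kb, H3K4me3 at 95.4% and a new H3K27ac peak at 100%. With H3K4me3 peaks within 1 kb merged these were 666 bp, 61.0 kb, 96.1% and 100%, and the score percentile was not computed. Where Cas9 H3K27ac was barred within 1 kb, the 100% with a new H3K27ac peak largely follows from that bar. With all marks read in 500 bp around the centre, a new H3K27ac peak was found at 92.5%. On autosomes alone, and without the 94 peaks at number gaps, all 10 results stayed within their intervals. The share of unmarked peaks that gained H3K27ac, 25.9%, became 12.9% with 50% cover, 13.3% with the trimmed list, 3.23% with the upper 50% of knockout scores, 55.5% in the upper 50% of H3K4me3 scores, 36.9% with no neighbour, 29.96% away from Cas9 marks, 36.2% with merging and 27.08% around the centre. Gfi1 islands of Cas9 neurospheres moved to 85.3%, 89.9% and 85.7% with 50% cover, in the upper H3K4me3 scores and with no neighbour. No paired analysis was possible because each group held 1 library. The lists carry no read counts, so depth limits cannot be stated.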
